A study of Homo sapiens with 10 samples.

Results

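The 9 genes described here make cytosolic acetyl-CoA, turn it into palmitate, or supply the NADPH that this synthesis uses: ACLY, ACSS2, SLC25A1, ACACA, ACACB, MID1IP1, FASN, ME1 and IDH1. They were chosen by name from the 35606 genes listed, and all 9 were found in both deposited tables. They were measured by bulk RNA-seq in QGP-1, a cell line established from a human neuroendocrine tumor of the pancreas, in 10 samples that fall into 5 groups of 2. In the first table, QGP-1 cells carried a single lentiviral construct for CRISPR interference (CRISPRi), a nuclease-dead Cas9 joined to the KRAB repressor with puromycin selection, together with the control guide sgNC (genotype WT in the labels) or the guide sgPIKFYVE-1 (genotype PIKFYVE knockdown), and received no drug. In the second table, WT QGP-1 cells received DMSO, 1 µM apilimod, an inhibitor of the lipid kinase PIKfyve, or 100 nM Torin-1, an inhibitor of the kinase mTOR. The labels give 24 h for both drugs, and the methods of the study give 8 h. Only 1 PIKFYVE guide was sequenced, and whether the infected cells were a pool or clones is not given in the sources used here. Since nothing in the labels says that the 2 replicates of a group came from separate cultures, the p-values measure only the spread between these samples, which may be technical.

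Palmitate is built in the cytosol from acetyl-CoA. Citrate leaves the mitochondrion through the carrier SLC25A1 and is split by ATP citrate lyase (ACLY), while ACSS2 makes the same acetyl-CoA from acetate. Acetyl-CoA carboxylase turns it into malonyl-CoA, with ACACA as the cytosolic enzyme of lipogenic tissues, ACACB as the enzyme at the outer mitochondrial membrane and MID1IP1 as a protein that promotes carboxylase polymerization. Fatty acid synthase (FASN) then joins malonyl-CoA units and spends NADPH, which malic enzyme 1 (ME1) and isocitrate dehydrogenase 1 (IDH1) produce in the cytosol. Many of these genes are known targets of the sterol regulatory element-binding proteins, transcription factors whose activity is raised by low sterol and by mTORC1.

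IDH1 has a further reason to be looked at, its place in the genome. In GENCODE release 29 on GRCh38, IDH1 spans chromosome 2 from 208236227 to 208266074 on the reverse strand and PIKFYVE, the gene targeted by CRISPRi, spans 208266267 to 208358751 on the forward strand. The annotated starts of both genes are thus 193 bases apart and point away from each other. Of the 9 IDH1 transcripts, only IDH1-206 starts there, and the other 8 start between 10469 and 25952 bases from the PIKFYVE start. IDH1-201, a principal transcript, starts 11134 bases away. The values are per gene, so the share of IDH1-206 is not known, and the position of the guide was not analysed here. The first sequence printed here is the 180 bases between the IDH1-206 start and the RefSeq start of PIKFYVE, chr2:208266075-208266254, read on the forward strand, and the second is the 113 bases between the starts of IDH1-201 and of its antisense neighbour IDH1-AS1, chr2:208255134-208255246, read on the reverse strand. The third and the fourth lie upstream of ACLY (chr17:41919023-41919272, reverse strand, 250 bases) and of MID1IP1 (chrX:38801209-38801431, forward strand, 223 bases), and were chosen to show the motif matches found among the 9 genes. All 4 come from RefSeq windows on GRCh38.p14 and run 5′ to 3′. Capitals mark a GC box (GGGCGG) in the first sequence and, in the others, CCAAT boxes (CCAAT, or ATTGG where it lies on the other strand) and a sterol regulatory element, present in MID1IP1 on the other strand.
IDH1-206 to PIKFYVE: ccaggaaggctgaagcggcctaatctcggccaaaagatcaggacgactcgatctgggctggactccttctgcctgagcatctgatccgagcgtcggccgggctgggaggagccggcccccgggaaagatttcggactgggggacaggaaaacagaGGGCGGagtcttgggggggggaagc
IDH1-201 upstream: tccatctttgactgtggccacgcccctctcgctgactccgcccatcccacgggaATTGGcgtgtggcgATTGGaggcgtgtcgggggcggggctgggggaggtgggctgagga
ACLY upstream: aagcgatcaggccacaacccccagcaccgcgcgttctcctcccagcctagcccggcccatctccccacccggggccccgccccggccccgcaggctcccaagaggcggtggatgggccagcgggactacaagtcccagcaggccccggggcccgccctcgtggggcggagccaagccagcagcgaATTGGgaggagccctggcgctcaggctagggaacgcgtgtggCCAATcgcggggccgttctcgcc
MID1IP1 upstream: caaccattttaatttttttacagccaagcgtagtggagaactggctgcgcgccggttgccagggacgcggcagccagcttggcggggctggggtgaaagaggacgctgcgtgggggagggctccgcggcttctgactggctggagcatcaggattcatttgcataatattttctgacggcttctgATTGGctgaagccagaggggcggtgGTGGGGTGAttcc

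The RefSeq table held 14 windows for 8 of the 9 genes, and FASN had no entry. Each window was searched on both strands over the 250 bases before its start. The sterol regulatory element TCACNCCAC was found in 1 of the 14 windows, that of MID1IP1, and in 0.883% of 35116 windows of all genes. The E-box CACGTG was found in 0 of the 14 and in 6.34% of all windows. CCAAT was found in 9 of the 14, for 7 of the 8 genes, and in 32.0% of all windows, and GGGCGG in 12 of the 14 and in 42.6% of all. A match says only that these letters are present, and several windows of 1 gene share its locus. Other spellings and sequence outside the 250 bases were not searched, so a missing match does not show that a gene lacks an element.

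Before the members, the targeted gene and the cells were checked. PIKFYVE had 100.7 and 97.5 CPM with sgNC and 10.9 and 12.5 CPM with sgPIKFYVE-1, a mean of 11.8% of that with sgNC (log2 fold change -2.98, SE 0.098, adjusted p = 1.22e-14). All values here are CPM on the scale the authors deposited, each table normalized on its own, and every fold change is a limma estimate on log2(CPM + 1) with p-values adjusted over all tested genes (Benjamini-Hochberg). An adjusted p under 0.05 is called passing the test. Estimated depth lay between 9.29 and 13.5 M reads per sample, where 3 reads correspond to 0.227 to 0.329 CPM, a limit of counting error only. Of 9 neuroendocrine markers, all 9 were at 1 CPM or more in every group, with sums of 6830 to 10930 CPM per sample. The lowest sum was in an sgPIKFYVE-1 sample and the highest in a Torin-1 sample, which belong to separately normalized tables. The sums with sgPIKFYVE-1 (6830 and 7080) and with apilimod (7078 and 7264) overlapped. Of 8 markers of fibroblasts, immune and endothelial cells, 1 or 2 reached 1 CPM, their sums were 3.82 to 14.5 CPM and CD3E was at 0. In bulk RNA, fewer cells of a type and less RNA per cell cannot be told apart, and this holds for every level given here.

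**Figure D1:**
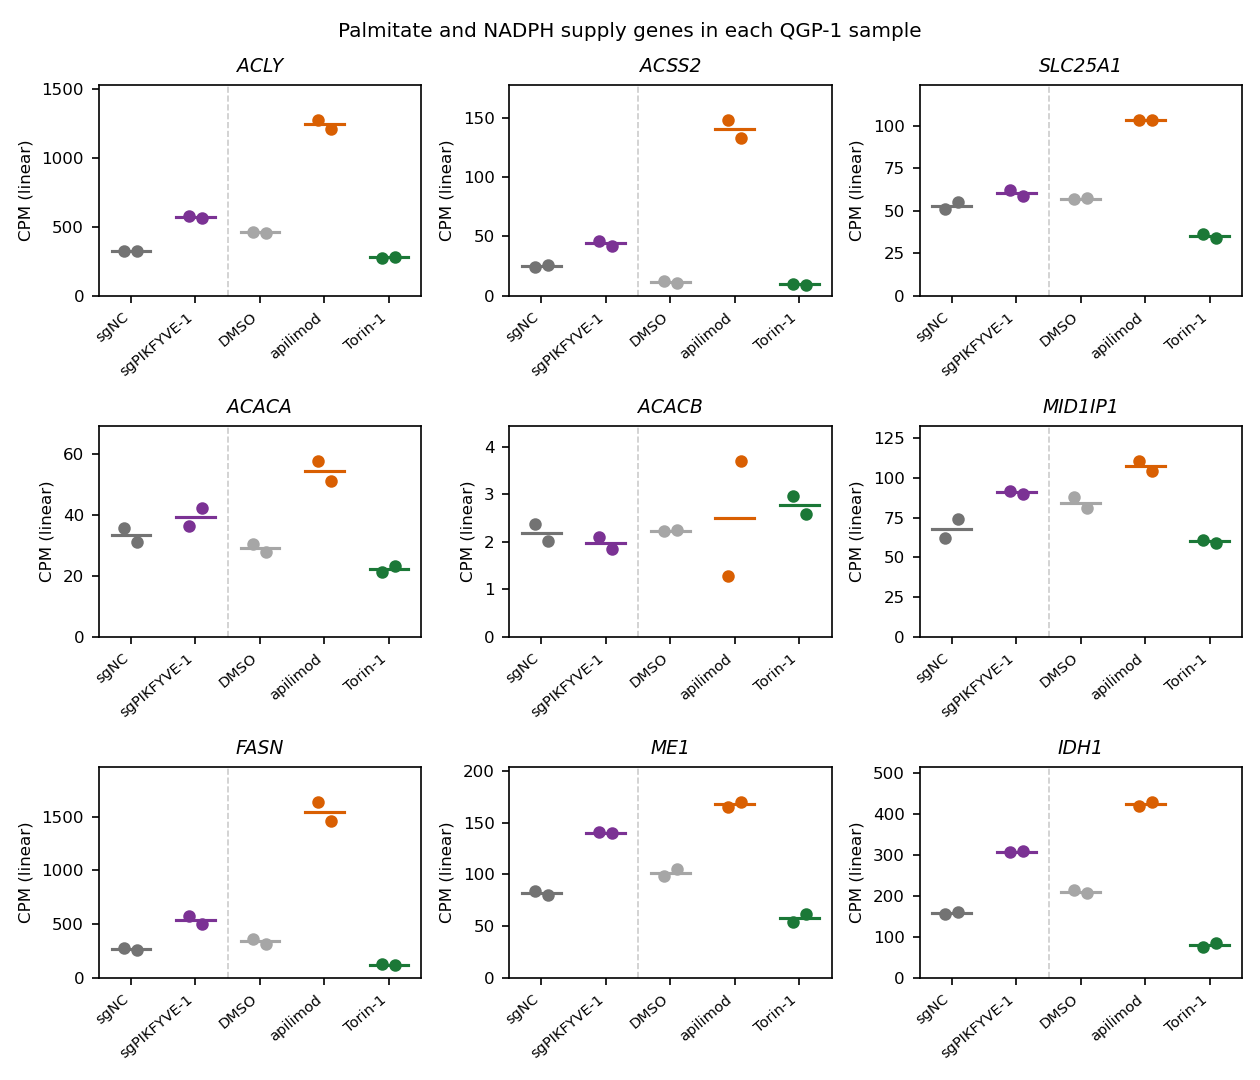
Level of each of the 9 genes in every sample, in CPM on a linear axis that starts at 0, by group (2 points per group, horizontal line at their mean, dashed line between the separately normalized tables). In all genes but ACACB both apilimod points lie above both DMSO points and both Torin-1 points below them.

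The 3 acetyl-CoA suppliers were higher with apilimod, and 2 of them also in the knockdown. The largest change belonged to ACSS2 (ENSG00000131069.20, chromosome 20 from 34872146 to 34927962), the acetate-using synthetase. ACSS2 had 12.4 and 10.5 CPM in DMSO, 148 and 133 CPM with apilimod, and 10.1 and 9.14 CPM with Torin-1. The apilimod mean of 140.5 CPM was 12.3 times the DMSO mean of 11.4 CPM, and the log2 fold change of 3.51 (SE 0.115, adjusted p = 3.70e-11) ranked 1 of the 13520 genes tested. In the knockdown table ACSS2 had 24.4 and 26.0 CPM with sgNC and 46.5 and 41.5 CPM with sgPIKFYVE-1, a log2 fold change of 0.78 (SE 0.099, adjusted p = 3.23e-06). The rise in the knockdown was thus smaller than with apilimod, and its groups did not overlap either. With Torin-1 both ACSS2 values were under both DMSO values, but the change of -0.23 (SE 0.115, 95% confidence interval -0.47 to 0.02) did not pass the test (adjusted p = 0.138). It lay at -0.11 without DMSO replicate 1 and at -0.34 without DMSO replicate 2, and passed in neither.

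ACLY (ENSG00000131473.17, chromosome 17 from 41866908 to 41930542) splits citrate and had the highest level per kb of the 9 genes in every group. It had 466 and 454 CPM in DMSO, 1279 and 1215 CPM with apilimod and 277 and 279 CPM with Torin-1. The log2 fold change was 1.44 (SE 0.043, adjusted p = 1.65e-11) with apilimod and -0.72 (SE 0.043, adjusted p = 2.55e-08) with Torin-1. With the guides, ACLY had 321 and 328 CPM with sgNC and 580 and 564 CPM with sgPIKFYVE-1, a log2 fold change of 0.81 (SE 0.044, adjusted p = 2.12e-11). The replicates of ACLY differed by far less than the groups in all 3 comparisons.

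SLC25A1 (ENSG00000100075.10, chromosome 22 from 19175575 to 19178830), the citrate carrier, separated the inhibitor from the knockdown. It had 56.9 and 57.4 CPM in DMSO, 103.1 and 103.5 CPM with apilimod and 36.1 and 33.7 CPM with Torin-1. The apilimod change was 0.84 (SE 0.075, adjusted p = 3.39e-06) and the Torin-1 change -0.70 (SE 0.075, adjusted p = 7.78e-06), both on the log2 scale. With sgNC it had 50.8 and 55.3 CPM and with sgPIKFYVE-1 61.9 and 58.6 CPM. These groups did not overlap, but the log2 fold change of 0.18 (SE 0.079, interval 0.02 to 0.35) did not pass the test (adjusted p = 0.0717).

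Set against ACLY per kb of principal transcript, ACSS2 stood at 3.76% and 3.26% of the ACLY level in DMSO and at 16.4% and 15.5% with apilimod. Both apilimod ratios were above both DMSO ratios. In the knockdown table the same ratio was 10.7% and 11.2% with sgNC and 11.4% and 10.4% with sgPIKFYVE-1, and these groups overlapped. The balance of the transcripts of the acetate and citrate routes thus moved with apilimod and did not separate the guides.

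Of the carboxylase genes, ACACA changed in the same directions as ACLY, by less in each comparison, and ACACB did not pass any test. ACACA (ENSG00000278540.5, chromosome 17 from 37084988 to 37406818) had 30.6 and 27.97 CPM in DMSO, 57.8 and 51.2 CPM with apilimod and 21.1 and 23.1 CPM with Torin-1. The log2 fold change was 0.87 (SE 0.101, adjusted p = 5.09e-05) with apilimod and -0.39 (SE 0.101, adjusted p = 0.00815) with Torin-1. The Torin-1 call rested on single libraries: without DMSO replicate 1 the adjusted p was 0.0787 and without Torin-1 replicate 1 it was 0.0529. In the knockdown table ACACA had 35.5 and 31.2 CPM with sgNC and 36.4 and 42.3 CPM with sgPIKFYVE-1, groups that lay next to each other without overlap. Its log2 fold change of 0.23 (SE 0.101, interval 0.02 to 0.44) did not pass the test (adjusted p = 0.0769), and it passed without sgNC replicate 1 (adjusted p = 0.0462) or without sgPIKFYVE-1 replicate 1 (adjusted p = 0.0328). Without sgNC replicate 2 the change was 0.14 (adjusted p = 0.436) and without sgPIKFYVE-1 replicate 2 it was 0.12 (adjusted p = 0.430).

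ACACB (ENSG00000076555.15, chromosome 12 from 109116595 to 109268226), the mitochondrial carboxylase, was the lowest of the 9 genes. It had 2.37 and 2.01 CPM with sgNC, 2.10 and 1.84 CPM with sgPIKFYVE-1 and 2.22 and 2.24 CPM in DMSO. Torin-1 samples had 2.96 and 2.58 CPM, and the apilimod samples disagreed, with 1.27 and 3.70 CPM. The log2 fold changes were -0.10 (SE 0.271) in the knockdown, 0.02 (SE 0.297) with apilimod and 0.22 (SE 0.297) with Torin-1. Intervals as wide as -0.62 to 0.66 with apilimod leave the direction open, and changes within them could not be resolved at this level and replication.

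MID1IP1 (ENSG00000165175.15, chromosome X from 38801432 to 38806537), the carboxylase regulator, moved little but in the same directions as ACLY. It had 87.8 and 80.9 CPM in DMSO, 110.9 and 104.1 CPM with apilimod and 61.2 and 59.3 CPM with Torin-1. The log2 fold changes were 0.35 (SE 0.072, adjusted p = 0.00647) and -0.48 (SE 0.072, adjusted p = 1.50e-04). With sgNC it had 62.0 and 74.3 CPM and with sgPIKFYVE-1 91.6 and 90.2 CPM, a log2 fold change of 0.42 (SE 0.079, adjusted p = 2.82e-04). The apilimod call was lost without DMSO replicate 2 (adjusted p = 0.118) and without apilimod replicate 1 (adjusted p = 0.0727). Its close relative THRSP, a lipogenic regulator of liver and adipose tissue, was listed at 0 in all 10 samples.

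FASN (ENSG00000169710.9, chromosome 17 from 82078333 to 82098332) had 276 and 257 CPM with sgNC and 579 and 499.9 CPM with sgPIKFYVE-1. In the drug table it had 361 and 314 CPM in DMSO, 1638 and 1454 CPM with apilimod and 124 and 117 CPM with Torin-1. In all 3 comparisons the treated FASN values did not overlap with those of their own control. The log2 fold change was 1.01 (SE 0.058) in the knockdown and 2.19 (SE 0.068) with apilimod, both past the test. With Torin-1 it was -1.48 (SE 0.068, adjusted p = 1.86e-09), the lowest of the 9 genes, and FASN ranked 32 from the lowest of 13520. The level of the synthase relative to that of the carboxylase that feeds it also differed between the groups. Per kb, the FASN level was 13.2 and 12.5 times the ACACA level in DMSO, 31.6 and 31.7 times with apilimod and 6.53 and 5.63 times with Torin-1. The ratio was 8.65 and 9.18 with sgNC and 17.7 and 13.2 with sgPIKFYVE-1, again without overlap.

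**Figure D2:**
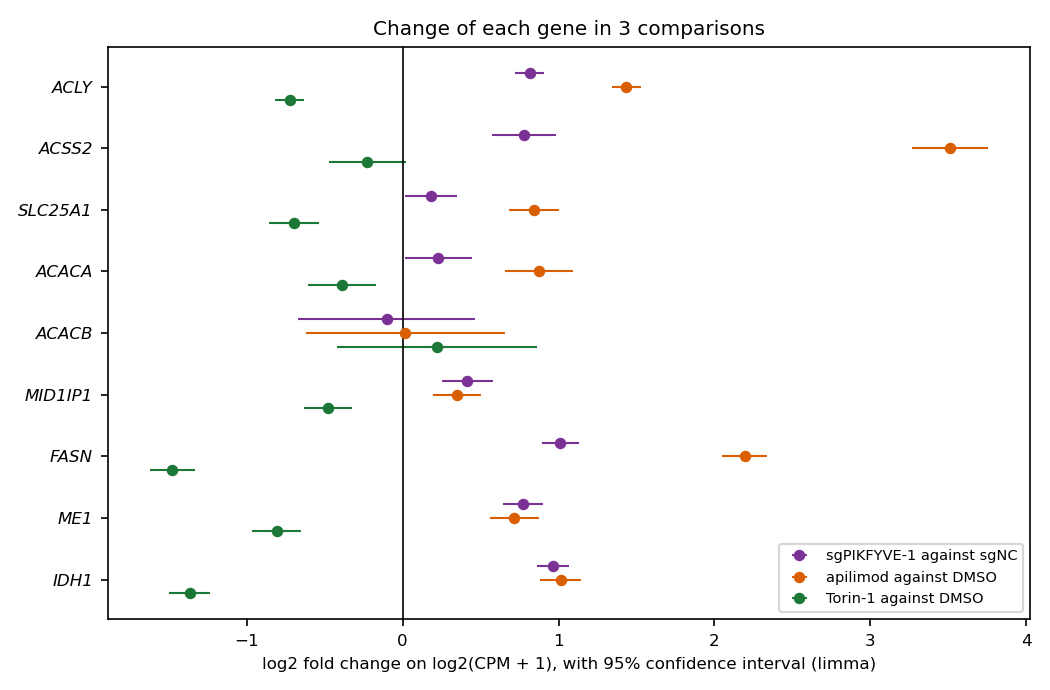
Log2 fold change of each gene on log2(CPM + 1) with its 95% confidence interval from limma, in the knockdown, with apilimod and with Torin-1 (the drugs share their DMSO samples). ACSS2 lies farthest to the right with apilimod at 3.51, FASN farthest to the left with Torin-1 at -1.48, and the 3 intervals of ACACB cross 0.

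Both NADPH genes rose in the knockdown and with apilimod and fell with Torin-1. ME1 (ENSG00000065833.9, chromosome 6 from 83210389 to 83431071), the cytosolic malic enzyme, had 83.6 and 79.7 CPM with sgNC and 140.5 and 139.5 CPM with sgPIKFYVE-1. Its log2 fold change there was 0.77 (SE 0.061, adjusted p = 5.91e-09). In DMSO it had 97.9 and 105 CPM, with apilimod 165 and 170.2 CPM and with Torin-1 54.0 and 61.2 CPM. The drug changes were 0.72 (SE 0.073, adjusted p = 1.42e-05) and -0.81 (SE 0.073, adjusted p = 1.68e-06).

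IDH1 (ENSG00000138413.13), which makes NADPH from isocitrate, had 154.5 and 159.9 CPM with sgNC and 306 and 309 CPM with sgPIKFYVE-1. IDH1 as a whole gene was therefore higher, not lower, in the knockdown, with a log2 fold change of 0.97 (SE 0.050, interval 0.86 to 1.07, adjusted p = 1.29e-11). The change of IDH1-206, the transcript that starts next to PIKFYVE, is not known from these values. With apilimod, which is given without a guide, IDH1 went from 214 and 206 CPM in DMSO to 420.0 and 430.0 CPM, a log2 fold change of 1.01 (SE 0.062, adjusted p = 5.53e-08). With Torin-1 it had 76.1 and 85.8 CPM, a log2 fold change of -1.37 (SE 0.062, adjusted p = 1.64e-09). IDH1-AS1 is annotated on the other strand inside the extent of IDH1, and whether the counting used strand is not given in the sources used here, so reads of the pair cannot be told apart.

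The mitochondrial and other relatives of these enzymes were given for comparison. IDH2, the mitochondrial NADPH-producing isocitrate dehydrogenase, had 238 and 232 CPM with sgNC and 209 and 198 CPM with sgPIKFYVE-1, a log2 fold change of -0.21 (SE 0.051, adjusted p = 0.00271). Per kb, IDH1 stood at 0.717 and 0.761 times IDH2 with sgNC and at 1.62 and 1.73 times with sgPIKFYVE-1, so the order of the pair turned. In the drug table the ratio was 1.07 and 1.09 in DMSO, 2.23 and 2.36 with apilimod and 0.435 and 0.499 with Torin-1. ME1 per kb stood at 1.995 and 2.14 times ME2, a mitochondrial malic enzyme, in DMSO, at 3.50 and 3.50 times with apilimod and at 1.35 and 1.36 times with Torin-1. The same ratio was 2.67 and 2.31 with sgNC and 3.31 and 3.01 with sgPIKFYVE-1. That ME1 stood above ME2 in every group rests on the transcript lengths used. In CPM, ME2 was above ME1 in DMSO (137 and 137), with Torin-1 (112 and 126) and with sgNC (87.4 and 96.6). It was below ME1 with apilimod and with sgPIKFYVE-1. ME2 itself was higher in the knockdown by 0.43 (SE 0.067, adjusted p = 4.41e-05) on the log2 scale. Of the 6 relatives tested (IDH2, the IDH3 subunits, ME2 and ME3), 3 were higher and 2 lower in the knockdown, 4 were lower with Torin-1 and 0 passed limma's test with apilimod, where 1 had an unadjusted p under 0.05. Over all genes, 21.6% were called higher and 20.9% lower in the knockdown and 21.8% lower with Torin-1. With apilimod the shares were 5.75% higher and 2.79% lower, so few calls among 6 genes would be usual there. The counts of the relatives rested on single libraries: with Torin-1, 1 passed without DMSO replicate 1 or Torin-1 replicate 1 and 2 without DMSO replicate 2 or Torin-1 replicate 2, in the knockdown 3 passed without sgNC replicate 1 or sgPIKFYVE-1 replicate 2, and with apilimod 1 passed without Torin-1 replicate 1 or 2.

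Counted over the 9 genes, 6 passed the test in the knockdown, each as higher, where 21.6% of the 13591 genes tested were called higher. The groups did not overlap, with sgPIKFYVE-1 higher, in 8 of the 9, against 35.4% of all genes. The median log2 fold change of the 9 was 0.77 and that of all genes -0.0042. With apilimod, 8 of 9 were called higher, where 5.75% of the 13520 genes tested were, with a median of 0.87 for the 9 and -0.0057 for all genes. With Torin-1, 7 of 9 were called lower, where 21.8% of the genes tested were, with a median of -0.70 for the 9 and -0.012 for all genes. Apilimod and Torin-1 share their DMSO samples, so their changes are not independent of each other. Compared directly, without DMSO, 8 of 9 genes were higher with apilimod than with Torin-1, where 26.2% of genes were called higher, with a median log2 difference of 1.54. In that comparison ACSS2 differed by 3.74 (SE 0.115), FASN by 3.67 (SE 0.068), IDH1 by 2.38 (SE 0.062) and ACLY by 2.16 (SE 0.043), and ACACB by -0.20 (SE 0.297), which did not pass.

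The knockdown and the inhibitor did not move the 9 genes equally. The difference of the changes, knockdown minus apilimod, was tested in 1 fit of all 10 samples, each change taken within its own table. It passed the test in 5 of the 9 genes, all 5 with the smaller rise in the knockdown, where 11.9% of the 13235 genes tested were called lower. The difference was -2.73 (SE 0.154, adjusted p = 3.03e-09) for ACSS2 and -1.18 (SE 0.105, adjusted p = 6.20e-07) for FASN. For SLC25A1 it was -0.66 (SE 0.105), for ACACA -0.64 (SE 0.149) and for ACLY -0.62 (SE 0.059). The acetyl-CoA suppliers, ACACA and FASN thus rose more with apilimod than in the knockdown, each against its own control.

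For the other 4 genes the difference did not pass, which does not show that the changes were equal. It was 0.05 for ME1 (interval -0.15 to 0.26, adjusted p = 0.737), 0.07 for MID1IP1 (interval -0.17 to 0.31) and -0.12 for ACACB (interval -0.98 to 0.75). For IDH1 it was -0.05 (interval -0.22 to 0.12, adjusted p = 0.719), the narrowest interval of the 4. Guide and drug cells also differed in the construct they carried and in the table they were normalized in. The knockdown was stable, while the drugs were given for 8 or 24 h. None of this can be told apart from the difference between knockdown and inhibition. In these separate tables the mean ACSS2 level of the controls was 25.2 CPM with sgNC and 11.4 CPM in DMSO.

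**Figure D3:**
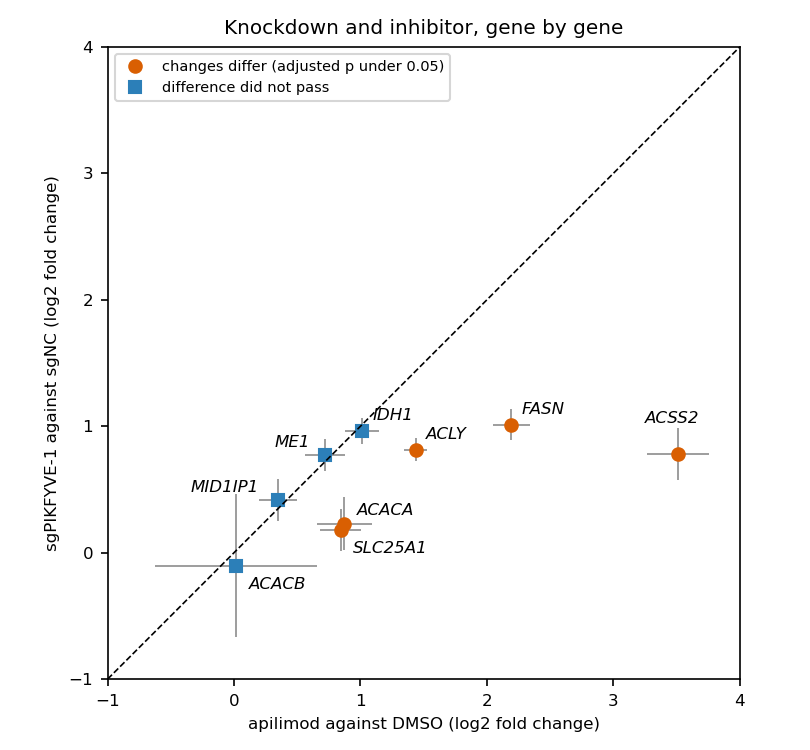
Log2 fold change in the knockdown (vertical) against that with apilimod (horizontal) for the 9 genes, with 95% confidence intervals, on equal axes with the line of equal change. The 5 genes whose changes differed (circles) lie below the line, and ME1, IDH1, MID1IP1 and ACACB (squares) lie near it.

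The other genes near PIKFYVE were listed to place the IDH1 value. Of 42 genes annotated with a start within 1 Mb, 31 were listed and 8 were tested in the knockdown, PIKFYVE included. FZD5, a Wnt receptor, had 16.2 and 16.2 CPM with sgNC and 26.2 and 25.4 CPM with sgPIKFYVE-1, a log2 fold change of 0.64 (SE 0.118, adjusted p = 2.30e-04). PTH2R, the next gene downstream of PIKFYVE, was low, with 2.13 and 1.05 CPM against 4.93 and 4.32 CPM, a log2 fold change of 1.15 (SE 0.268, adjusted p = 0.00182). The remaining 4 did not pass: CREB1 had -0.15, METTL21A -0.09, CCNYL1 -0.04 and PLEKHM3 0.10. PIKFYVE was the 1 gene of the 8 that passed as lower, and 3 passed as higher. Over all genes tested in the knockdown, 20.9% were called lower and 21.6% higher. FZD5 also changed with the drugs, by 0.80 (SE 0.134, adjusted p = 0.00133) with apilimod and by -0.46 (SE 0.134, adjusted p = 0.0143) with Torin-1, while PTH2R was under the filter there. PIKFYVE itself changed by 0.22 (SE 0.067, adjusted p = 0.0604) with apilimod and by 0.12 (SE 0.067, adjusted p = 0.186) with Torin-1, neither past the test, although the Torin-1 change passed under quantile normalization (0.19, adjusted p = 0.0459).

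**Figure D4:**
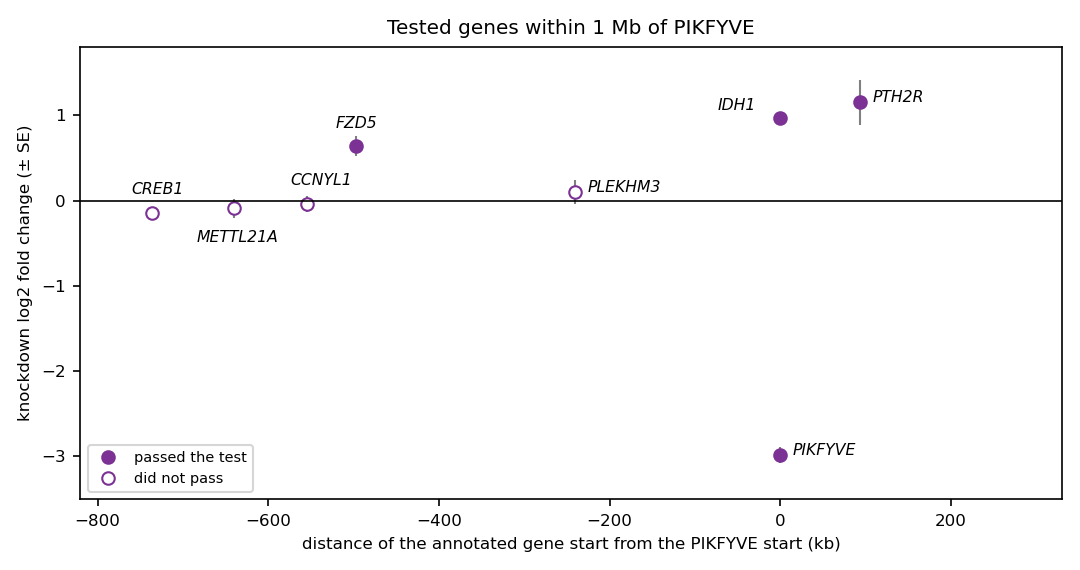
Knockdown log2 fold change with its SE for the 8 tested genes within 1 Mb of PIKFYVE, by distance of the annotated gene start from the PIKFYVE start in kb (for IDH1 the start of IDH1-206). PIKFYVE lies at -2.98. IDH1, drawn at the start of IDH1-206 but measured as a whole gene, lies at 0.97.

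The levels of the 9 genes were compared per kb of principal transcript, within a group. In DMSO the order ran from ACLY at 106 CPM per kb through IDH1 at 86.1, FASN at 39.4, SLC25A1 at 34.7, ME1 at 30.1, MID1IP1 at 22.3, ACSS2 at 3.73 and ACACA at 3.06 to ACACB at 0.238, and no neighbours in that order overlapped. With apilimod ACLY was at 287 CPM per kb, FASN at 180.5 and IDH1 at 174, the last pair overlapping, and ACSS2, at 45.8, stood above MID1IP1, at 28.4. With Torin-1 FASN stood at 14.03 CPM per kb, under ME1 and MID1IP1, which overlapped. With sgNC ACLY stood at 74.8 CPM per kb, IDH1 at 64.4, and SLC25A1 and FASN overlapped at 32.2 and 31.1. With sgPIKFYVE-1 they were at 132 for ACLY, 126 for IDH1, 63.0 for FASN and 36.6 for SLC25A1. ACACA and ACACB were the lowest pair in every group. The ACLY level was 445 times that of ACACB in DMSO. The carboxylase transcripts thus stood under those of ACLY and FASN, the enzymes before and after them, in every group, as a description with 2 samples each.

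**Figure D5:**
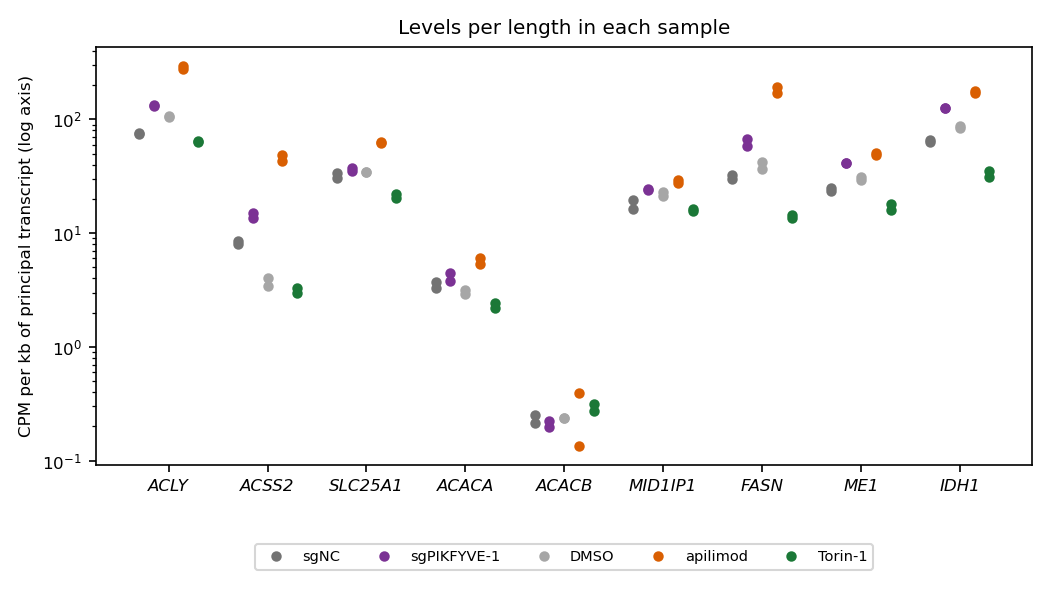
Level of each gene in CPM per kb of its principal GENCODE 29 transcript on a log axis, 1 point per sample, coloured by group (sgNC and sgPIKFYVE-1 belong to one table, the other groups to another). ACLY is highest and ACACB lowest in every group, and ACSS2 spans the widest range, from 2.98 with Torin-1 to 48.4 with apilimod.

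Around this pathway, the genes that bring pyruvate carbon into citrate were followed as a list of 20, of which 18 were tested. In the knockdown 12 were called higher and 1 lower, with apilimod 9 were called, each higher, and with Torin-1 2 higher and 10 lower. Over all genes, 21.6% were called higher and 20.9% lower in the knockdown. With apilimod the shares were 5.75% higher and 2.79% lower, and with Torin-1 16.6% higher and 21.8% lower. The median log2 fold changes of the list were 0.36, 0.34 and -0.25. MPC1, a subunit of the mitochondrial pyruvate carrier, changed by 1.45 (SE 0.076, adjusted p = 1.49e-11) in the knockdown and by 1.15 (SE 0.098, adjusted p = 2.24e-06) with apilimod. PDP2, a phosphatase that activates pyruvate dehydrogenase, changed by 1.103 (SE 0.079, adjusted p = 3.28e-07) with apilimod. Pyruvate carboxylase (PC), which refills the citrate cycle, changed by -1.01 (SE 0.138, adjusted p = 7.01e-05) with Torin-1. The kinases that switch pyruvate dehydrogenase off did not move as one, since PDK1 was lower in the knockdown (-1.21, SE 0.069) and with Torin-1 (-0.83, SE 0.080) and PDK4 was higher in both (0.83, SE 0.067, and 1.12, SE 0.055).

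Of 14 other NADPH-related genes, 13 were tested. In the knockdown 7 were higher and 2 lower, with apilimod 2 were called, both higher, and with Torin-1 1 higher and 7 lower. Over all genes, 21.6% were called higher and 20.9% lower in the knockdown and 5.75% higher with apilimod. With Torin-1 the shares were 16.6% higher and 21.8% lower. The Torin-1 count of 8 was 3 without DMSO replicate 1, 5 without DMSO replicate 2 and 4 without Torin-1 replicate 1. PGD, a dehydrogenase of the pentose phosphate pathway, changed by 0.85 (SE 0.053, adjusted p = 6.88e-08) with apilimod. MTHFD1, a cytosolic folate enzyme, changed by 0.99 (SE 0.071, adjusted p = 1.43e-09) in the knockdown, and H6PD, which makes NADPH inside the endoplasmic reticulum, by -0.60 (SE 0.129, adjusted p = 9.26e-04).

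Of 13 regulators of lipogenic transcription, all tested, 3 were higher and 2 lower in the knockdown, 4 were called with apilimod, each higher, and 1 was higher and 3 were lower with Torin-1. Set against the shares over all genes, given with the citrate list, the counts in the knockdown and with Torin-1 are near or below the background. The knockdown count was smaller without sgNC replicate 2. SREBF1, which encodes the sterol regulatory element-binding protein that acts mainly on fatty acid genes, had 113 and 99.9 CPM with sgNC and 140.4 and 125 CPM with sgPIKFYVE-1, a change of 0.31 (SE 0.070, adjusted p = 0.00131). In the drug table it had 88.7 and 99.0 CPM in DMSO, 143 and 131 CPM with apilimod and 46.0 and 36.8 CPM with Torin-1, changes of 0.54 (SE 0.096, adjusted p = 0.00231) and -1.17 (SE 0.096, adjusted p = 7.13e-07). SREBF2, which acts mainly on sterol genes, changed by 0.16 (SE 0.053, adjusted p = 0.0223) in the knockdown, by 0.72 (SE 0.057, adjusted p = 9.89e-07) with apilimod and by -0.42 (SE 0.057, adjusted p = 5.81e-05) with Torin-1. INSIG1, which holds these proteins in the endoplasmic reticulum and is itself their target, changed by 1.37 (SE 0.048), 2.36 (SE 0.070) and -2.18 (SE 0.070) in the same order. MLXIPL, which encodes a glucose-responsive lipogenic factor, was lower in the knockdown (-0.59, SE 0.222, adjusted p = 0.0407) and higher with apilimod (1.63, SE 0.198, adjusted p = 7.97e-05), at means of 2.48 to 9.80 CPM in the groups compared.

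Of 14 genes that modify the carboxylase and the synthase, among them the AMP-activated kinase subunits that switch the carboxylase off, 12 were tested. In the knockdown 1 was higher and 3 lower, and with Torin-1 2 were higher and 3 lower. With apilimod 0 of the 12 passed limma's test, and 2 had an unadjusted p under 0.05, both lower. Of all genes, 5.75% were called higher and 2.79% lower with apilimod. Over all genes 21.6% were called higher and 20.9% lower in the knockdown and 16.6% higher and 21.8% lower with Torin-1, so these counts are near or below the background. The Torin-1 count of 5 was 1 without DMSO replicate 1 or 2, 3 without Torin-1 replicate 1 and 2 without Torin-1 replicate 2. STRADA, a partner of the kinase upstream of AMP-activated kinase, changed by -0.59 (SE 0.104, adjusted p = 1.26e-04) in the knockdown.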

How the data were processed

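Bulk RNA-seq values of 10 QGP-1 samples, 2 per group, were used. Reads were demultiplexed with bcl2fastq 2.20 and trimmed with Trimmomatic according to the methods and the submitters' processing notes, which also name hg38. The authors quantified transcripts, summed them to genes and applied TMM normalization, and deposited a signal on the scale of CPM in 1 table for the guides and another for the drugs. The quantifier and the annotation are not given in the sources used here. The methods describe oligo(dT) selection, the labels depletion of ribosomal RNA. Samples summed to 972493 to 1024332, so the values are not plain CPM, which the design had assumed. Between 68.5% and 72.3% of values under 2 CPM were whole reads within 0.02 reads, too few to recover counts, and no count model was fitted.

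Testing used limma 3.58.1 (lmFit, then eBayes with trend, in R 4.3.3) on log2(CPM + 1), for genes averaging 1 CPM or more over the fitted samples, with Benjamini-Hochberg adjustment and a threshold of 0.05. For low genes the pseudocount makes changes look smaller. The fit of the guides held 4 samples, the drug fit 6 and the fit of the difference 10. Alternatives were no filter, a pseudocount of 0.1, no variance trend, a replicate block, quantile normalization, fits of the compared groups alone, and leaving out each sample. The procedure was tested on simulated data.

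The members and gene lists were chosen with earlier results of these data known. All members were named, and of each list at most the 2 highest and 2 lowest changes that passed the test without overlap in each comparison, with SREBF1 and SREBF2, the tested genes within 1 Mb of PIKFYVE, and the 3 genes nearest to each member over 3 changes. A gene named for one comparison, and the enzyme relatives used in ratios, may be given in others. Positions are those of GENCODE release 29, and the upstream sequences those of RefSeq. The guide sequences were not used here. Values of 1 gene of the lists are not reported here.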

Additional observations from a re-analysis of the deposited data

Results flagged for a closer look

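For 5 of the 9 genes the change in the knockdown differed from the change with apilimod by the test of the difference itself (limma, all 10 samples). Knockdown minus apilimod, in log2 units, was -2.733 for ACSS2, -1.182 for FASN, -0.6625 for SLC25A1, -0.6435 for ACACA and -0.6208 for ACLY. All 5 kept an adjusted p under 0.05 when any 1 of the 10 samples was left out, with ACSS2 between -2.85 and -2.62 and ACACA between -0.75 and -0.54. Guides and drugs were run as separate tables, each with its own control, and the part of that was not tested.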

How the results depend on the processing

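The number of the 9 genes past the threshold stayed within 1.5 times its reported value in all 28 recomputations under other settings and in all 32 with a sample left out. With a sample left out it lay between 6 and 7 in the knockdown, 7 and 8 with apilimod, 6 and 7 with Torin-1, and stayed at 8 for apilimod against Torin-1 and at 5 for the difference of knockdown and apilimod. The IDH1 change in the knockdown lay between 0.94 and 0.99. Leaving out 1 of 2 replicates assumes that the lone sample varies like the other groups. Deviations of same-numbered samples correlated at 0.037 in the knockdown table and 0.0426 to 0.104 in the drug table. These values cover all genes, with their counting error, and cannot decide whether the replicate numbers pair the samples. The main fits used no pairing. The replicate block leaves the fold changes as they are by construction. With it ACACA passed in the knockdown (log2 fold change 0.23, adjusted p = 0.0474) and PIKFYVE with apilimod (0.22, adjusted p = 0.0205), 1 of the 6 enzyme relatives passed with apilimod, as it did in the fit of the compared groups alone, the member counts were 7, 8, 7, 8 and 5, and the calls over all genes with apilimod went from 1155 to 1756.

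Signs turned only for ACACB and MID1IP1, in values that passed no test. ACACB was at -0.0294 with apilimod under a pseudocount of 0.1, and at 0.0635 in the knockdown and 0.0509 in the difference under quantile normalization. With samples left out, ACACB ran from -0.51 to 0.54 with apilimod, from -0.73 to 0.32 for apilimod against Torin-1 and from -0.64 to 0.41 in the difference, the ends set by the apilimod replicates, and the MID1IP1 difference ran from -0.0601 (without sgNC replicate 1) to 0.20. Without the variance trend MID1IP1 lost its call in the knockdown (adjusted p = 0.0573) and with apilimod (adjusted p = 0.0939). Calls over all genes without the trend were 3709 in the knockdown, against 5772, and 466 with apilimod, against 1155. The apilimod count was 565 with no filter, 656 without DMSO replicate 1, 596 without DMSO replicate 2 and 688 without apilimod replicate 1. Under quantile normalization 55.1% of apilimod calls were higher, against 67.4%. List counts moved by over 1.5 times in 34 of 168 recomputations under other settings and in 34 of 192 with a sample left out: without the trend the citrate list had 4 genes past the threshold with apilimod, against 9, and the NADPH list 2 with Torin-1, against 8, or 3 without DMSO replicate 1. Without the trend the enzyme relatives had 2 in the knockdown, against 5, and 1 with Torin-1, against 4, and the carboxylase and synthase modifiers 1 in the knockdown, against 4, and 1 with Torin-1, against 5. With no filter the relatives had 3 and 1, the modifiers 2 in the knockdown, and the mitochondrial synthesis genes 1 in the knockdown, against 3, and 2 with Torin-1, against 4. The lipogenic regulators had 2 to 6 in the knockdown with a sample left out, against 5. The cause was not tested. The spread between 2 samples limits small changes such as those of ACACB, at about 2 CPM.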

Other observations

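Mitochondria hold a fatty acid synthesis route of their own, which makes the lipoic acid precursor from malonyl-CoA, and its 11 genes were all tested. In the knockdown 1 was higher and 2 lower, and with Torin-1 3 were higher and 1 lower. With apilimod 0 passed limma's test, and 3 had an unadjusted p under 0.05. Of all genes, 5.75% were called higher and 2.79% lower with apilimod. Over all genes 21.6% were called higher and 20.9% lower in the knockdown and 16.6% higher and 21.8% lower with Torin-1, so these counts are near or below the background. The knockdown count of 3 was 1 without sgPIKFYVE-1 replicate 2, the Torin-1 count of 4 was 2 without DMSO replicate 1 or Torin-1 replicate 1, and 1 passed with apilimod without DMSO replicate 2. MCAT, the malonyl transferase of this route, changed by 0.61 (SE 0.167, adjusted p = 0.00589) in the knockdown, and HSD17B8, a reductase subunit, by -0.77 (SE 0.152, adjusted p = 4.43e-04). With Torin-1 HSD17B8 was called higher, by 1.67 (SE 0.586, adjusted p = 0.0373), with 10.8 and 9.99 CPM against 0.308 and 8.87 CPM in DMSO, so the size of that change rests on DMSO replicate 1. With Torin-1 the lipoyl synthase LIAS changed by 0.60 (SE 0.127, adjusted p = 0.00205) and the acyl carrier protein NDUFAB1 by -0.58 (SE 0.102, adjusted p = 5.33e-04).

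The genes most like each member were those with the smallest Euclidean distance over the 3 log2 fold changes (knockdown, apilimod, Torin-1) among 13235 genes, as a description. FASN was nearest to IDI1 (distance 0.143), FDFT1 and MSMO1, 3 genes of sterol synthesis. ACLY was nearest to NMUR2 (0.172), FADS1 and ERG28, and SLC25A1 to ARTN (0.024), SOCS3 and CACNB1. ACSS2 had no close gene, since MVD, the nearest, lay at 0.964, followed by PRKG1 and CDHR1. IDH1 was nearest to AL669918.1 (0.303), TUBA1A and MFSD2A, and ME1 to LRP8 (0.157), SLC6A9 and SLC39A8. MID1IP1 was nearest to TARS (0.0573), RAI14 and SYT7, and ACACA to SV2A (0.0792), MPZL1 and SSH2. ACACB was nearest to RACK1 (0.00838), SEC11A and ATXN2, but its own changes were not resolved, so these small distances show no likeness.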
